A study of Homo sapiens with 17 samples.

Results

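The complement genes CD55, CD46, CD59, CFI, SERPING1, C3, C4A, C1R and C1S were examined in Ishikawa cells, a human endometrial adenocarcinoma line used as a stand-in for the epithelium of the endometrium. These 9 genes, of the 60662 in the count table, were chosen by their role in complement after CD55 had been seen to rise under progesterone (P4) in these same cultures. Expression in the P4 comparisons is therefore given as a description, without a p-value for any of the 9. RNA was sequenced from 3 untreated control cultures, 2 cultures given only a vehicle part that the labels call Nap (Nap vehicle), 3 cultures given Nap and an ethanol vehicle, 70% in the labels (vehicle control), and 3 cultures given Nap and P4 (P4 treated). All were harvested after 24 h, and all were grown in medium with charcoal-stripped serum. The sources give the P4 concentration in differing units, so it is not stated here. Nap is not explained in the sources used here. The labels name ethanol for the vehicle control only and do not say whether P4 treated cultures had it. If they did not, P4 and the lack of ethanol cannot be told apart in the comparison of P4 treated with vehicle control cultures. A further 6 cultures, given recombinant human PSAT1 with or without P4, have titles that contradict their descriptions and entered no comparison.

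Complement is a cascade of blood and tissue-fluid proteins that marks surfaces for removal and can lyse cells. The proteases C1r and C1s start the classical pathway by cleaving C4, all pathways meet at C3, and host cells protect themselves with regulators. CD55 (decay-accelerating factor) takes apart the convertases that cleave C3 and C5. CD46 is the membrane cofactor for factor I, the protease encoded by CFI, and CD59 blocks assembly of the membrane attack complex. SERPING1 encodes C1 inhibitor, which inactivates C1r and C1s. In the endometrium, complement regulators sit on the epithelial surface, and CD55 is known as a gene of the secretory phase.

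Read totals of the 11 cultures with a condition lay between 4999521 and 19704493. Vehicle control replicate 1 was the smallest. In these libraries 3 counts, taken as the limit of detection, correspond to 0.152 to 0.600 CPM (counts scaled to the library total), a floor that covers counting error only. The 7 epithelial markers, among them EPCAM at 168 to 217 CPM and PAX8 at 205 to 362 CPM, were all detected in every group. MUC1 was the lowest of them, at 0.591 to 2.98 CPM. Of the stromal markers, DCN, PDGFRB and LUM reached at most 0.158, 0.328 and 1.43 CPM. Collagen genes of the same list were higher, with COL1A2 at 54.2 to 472 CPM, and the list summed to 125 to 631 CPM. In contrast, the leukocyte markers together reached at most 1.85 CPM, the endothelial ones 1.56 CPM and the hepatocyte ones 0.455 CPM, with CDH5 and TTR at 0 throughout. The progesterone receptor gene PGR stood at 103 to 117 CPM in control, 102 to 146 CPM in Nap vehicle, 48.6 to 61.9 CPM in vehicle control and 18.1 to 27.2 CPM in P4 treated cultures. Thus the receptor stood lower in vehicle control and lowest in P4 treated cultures. Since whole cultures were sequenced, fewer cells of a kind and less RNA per cell cannot be told apart.

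Levels of the 9 genes covered a wide range, and the 3 membrane regulators stood far above the other 6. Per length (RPKM, that is CPM per kilobase of exon), CD46 was highest in vehicle control cultures at 24.1 ± 0.458, followed by CD59 at 5.81 ± 0.643 and CD55 at 3.43 ± 0.369 (SD, n = 3 each). The remaining genes were far below. C1R was at 0.376 ± 0.0429, SERPING1 at 0.349 ± 0.142, C1S at 0.213 ± 0.0346, C3 at 0.123 ± 0.100 and C4A at 0.0472 ± 0.0304 RPKM. Of these, C1R and SERPING1 did not differ beyond their spread, and neither did C1S and C3. CFI gave a single read, in 1 control culture, among the 11 libraries.

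CD55 showed the widest separation of the groups. Its levels were 21.4, 22.1 and 22.8 CPM in control cultures, 20.6 and 22.1 CPM in Nap vehicle cultures and 20.9, 22.1 and 17.9 CPM in vehicle control cultures. After P4 they were 123, 146 and 138 CPM. Every P4 treated culture lay above each of the other 8, whose own range was 17.9 to 22.8 CPM, so the groups did not overlap. The log2 fold change was 2.74 ± 0.0988 (SE) against vehicle control, a 6.68-fold higher level, 2.67 ± 0.110 against Nap vehicle and 2.63 ± 0.101 against control. These 3 comparisons share the P4 treated cultures. Ranked by fold change, CD55 was number 73 of 16540 genes tested against vehicle control, 155 of 16987 against Nap vehicle and 136 of 16620 against control. Among 16947 protein-coding genes with reads, it moved from a mean level above 53.4% of them in vehicle control to a level above 92.6% of them in P4 treated cultures.

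CD46, the neighbour of CD55 on chromosome 1, showed no such step. Its levels were 212, 208 and 238 CPM in control, 217 and 215 CPM in Nap vehicle, 205, 211 and 213 CPM in vehicle control and 225, 194 and 210.4 CPM in P4 treated cultures. The P4 treated values enclosed those of the vehicle control. Against vehicle control its log2 fold change was -0.0083 ± 0.0684 (SE), with a 95% interval from -0.16 to 0.14.

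CD59 was lower by a modest amount after P4. It stood at 59.2, 65.1 and 62.4 CPM in control, 56.7 and 62.7 CPM in Nap vehicle, 52.5, 63.6 and 64.5 CPM in vehicle control and 55.6, 39.1 and 45.1 CPM in P4 treated cultures. The ranges of P4 treated and vehicle control cultures overlapped, because P4 treated replicate 1 lay above vehicle control replicate 1. All P4 treated cultures lay below the control and Nap vehicle ones. CD59 changed by a log2 fold of -0.39 ± 0.12 (SE) against vehicle control, -0.36 ± 0.14 against Nap vehicle and -0.40 ± 0.12 against control. Its call against vehicle control was lost without vehicle control replicate 2, at -0.36, without vehicle control replicate 3, at -0.35, or without P4 treated replicate 3, at -0.35. Against Nap vehicle it was lost without either Nap vehicle culture or without P4 treated replicate 2 or 3, with log2 fold changes of -0.43, -0.27, -0.24 and -0.32 in that order, and with DESeq2, at -0.35.

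**Figure D1:**
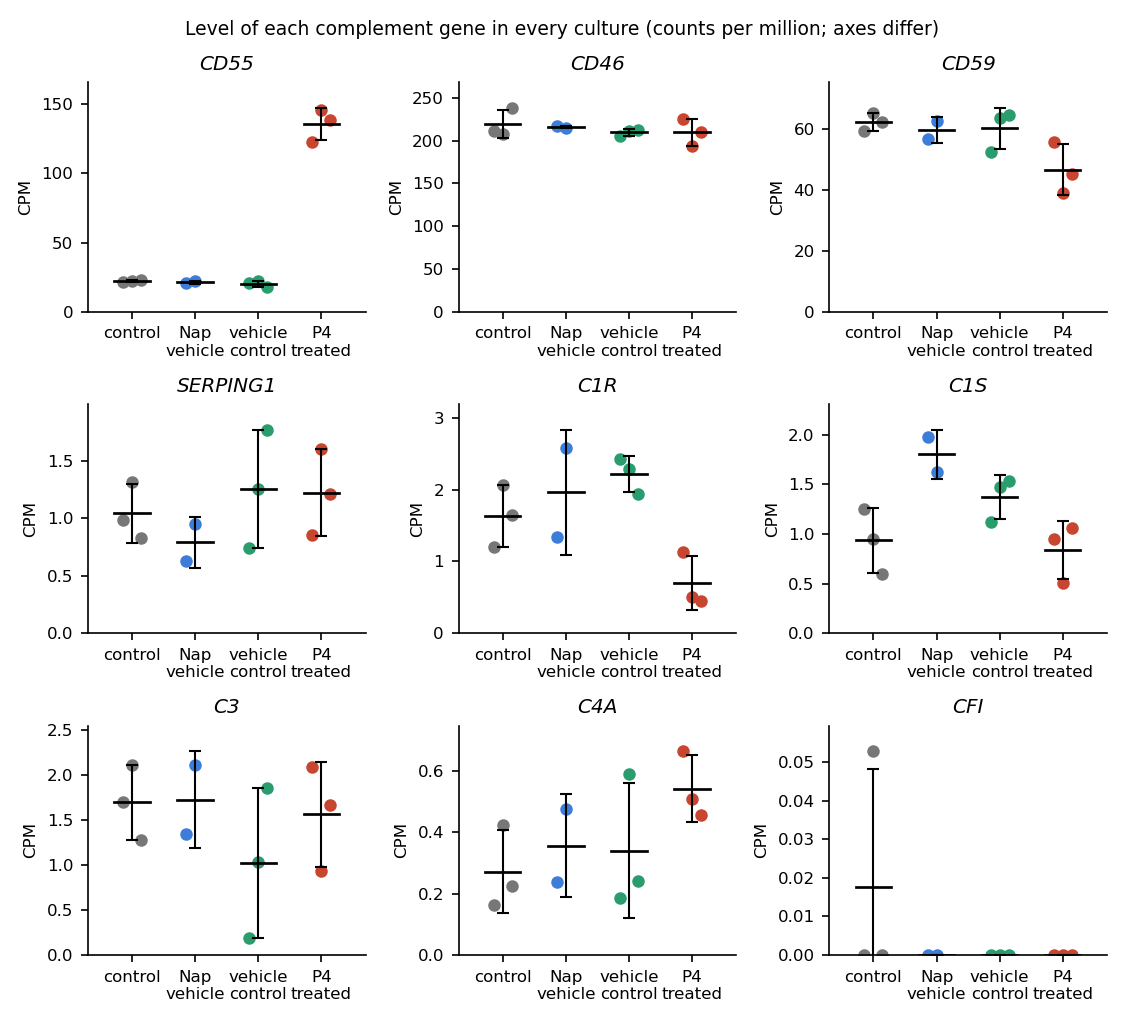
Level of each of the 9 complement genes in CPM (vertical axes start at 0 and differ between genes) in 3 control, 2 Nap vehicle, 3 vehicle control and 3 P4 treated cultures. Points are cultures, horizontal lines are group means and bars are 1 SD; CD55 in the P4 treated cultures, at 123 to 146 CPM, sits above all other cultures, at 17.9 to 22.8 CPM.

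As a result, the mix of membrane regulators differed between groups. CD55 made up 10.7 ± 0.344% of the summed RPKM of CD55, CD46 and CD59 in control, 10.6 ± 0.399% in Nap vehicle and 10.3 ± 1.16% in vehicle control cultures, but 44.6 ± 4.37% in P4 treated cultures (SD, n = 3, 2, 3 and 3). The share of CD46 was 72.3 ± 1.15% in the vehicle control and 46.7 ± 2.92% after P4, at nearly the same mean level. That of CD59 was 17.4 ± 1.45% and 8.71 ± 1.46%. Summed over the 3 genes, RPKM was 33.3 ± 1.02 in the vehicle control and 51.6 ± 0.777 after P4. Per length, CD46 exceeded CD55 by a ratio of 7.08 ± 0.880 in vehicle control cultures and 1.06 ± 0.173 in P4 treated ones. In the P4 treated cultures, at 24.1 ± 1.82 RPKM for CD46 and 23.0 ± 1.97 for CD55, both genes did not differ beyond their spread. The order of CD59 and CD55 was turned around, since CD59 exceeded CD55 by a ratio of 1.71 ± 0.317 in vehicle control and stood at 0.199 ± 0.0536 of it after P4.

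**Figure D2:**
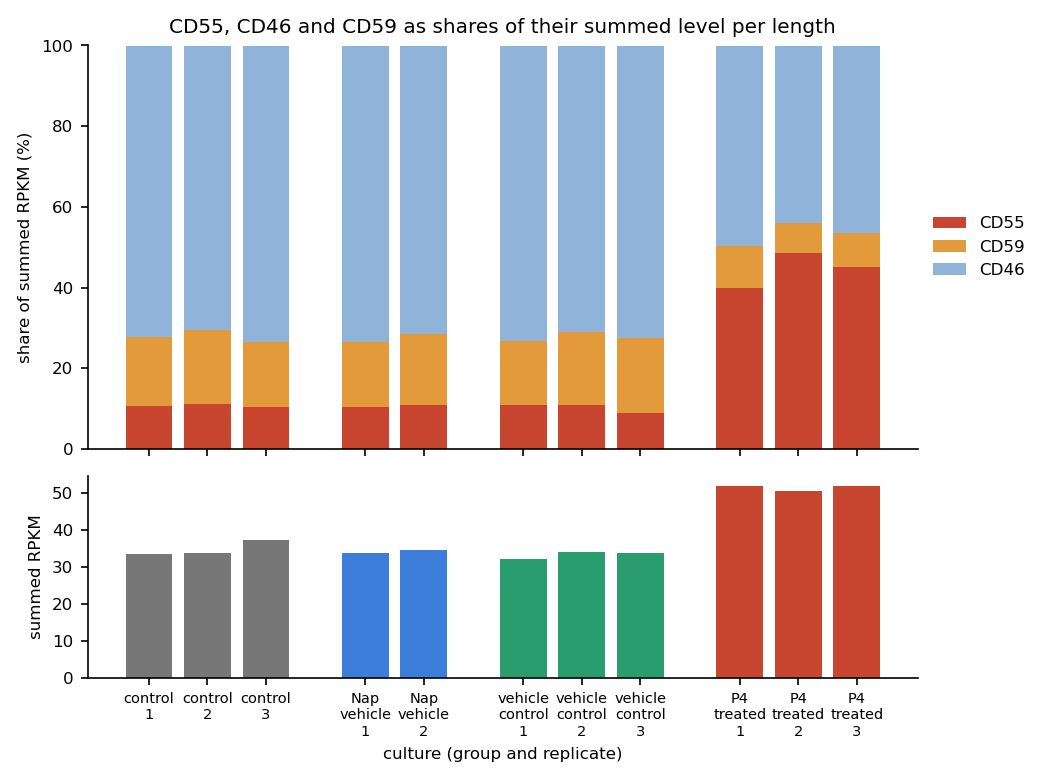
Upper panel, share in percent of CD55, CD59 and CD46 in their summed RPKM for each culture; lower panel, that summed RPKM, by group and replicate. CD55 takes 8.97 to 11.04% of the sum in the 8 cultures without P4 and 40.0 to 48.7% in the 3 P4 treated cultures.

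To show the sequence at the start of the genes that moved and of the neighbour that did not, the window from 250 bases before to 50 bases after the RefSeq start (GRCh38.p14) is given for CD55 (chr1:207321428-207321727, plus strand), CD46 (chr1:207751788-207752087, plus strand), CD59 (chr11:33736430-33736729, minus strand) and C1R (chr12:7092396-7092695, minus strand), 5′ to 3′. CD46, CD59 and C1R have other starts in the same table, and the first is shown. Capitals mark TGTTCT, the hexamer bound by the progesterone and glucocorticoid receptors, TGACG, the core of the cyclic AMP response element, GGGCGG, the GC box, and CCAAT, each searched on both strands.
CD55: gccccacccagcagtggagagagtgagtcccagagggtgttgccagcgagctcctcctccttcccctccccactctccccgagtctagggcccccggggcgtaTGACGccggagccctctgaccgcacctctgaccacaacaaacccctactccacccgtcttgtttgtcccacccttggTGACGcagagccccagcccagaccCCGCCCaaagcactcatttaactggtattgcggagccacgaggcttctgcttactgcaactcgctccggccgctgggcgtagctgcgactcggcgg
CD46: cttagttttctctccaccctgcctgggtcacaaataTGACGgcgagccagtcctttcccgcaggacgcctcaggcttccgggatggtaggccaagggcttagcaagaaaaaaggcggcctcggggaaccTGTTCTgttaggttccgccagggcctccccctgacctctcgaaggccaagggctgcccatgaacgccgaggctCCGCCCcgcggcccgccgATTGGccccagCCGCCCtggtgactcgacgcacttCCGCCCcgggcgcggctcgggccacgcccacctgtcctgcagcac
CD59: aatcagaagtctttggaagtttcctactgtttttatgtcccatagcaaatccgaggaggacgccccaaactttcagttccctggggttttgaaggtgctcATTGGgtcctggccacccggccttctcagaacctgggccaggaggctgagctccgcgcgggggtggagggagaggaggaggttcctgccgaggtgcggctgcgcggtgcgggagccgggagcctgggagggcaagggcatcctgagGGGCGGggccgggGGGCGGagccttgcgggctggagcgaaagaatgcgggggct
C1R: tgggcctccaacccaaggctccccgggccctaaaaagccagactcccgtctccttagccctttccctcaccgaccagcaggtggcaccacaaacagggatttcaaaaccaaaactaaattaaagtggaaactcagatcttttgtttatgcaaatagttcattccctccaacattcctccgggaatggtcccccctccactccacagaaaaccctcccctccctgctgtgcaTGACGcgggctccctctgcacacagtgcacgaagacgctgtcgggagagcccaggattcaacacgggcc
The CD55 window held TGACG at 2 places, 147 and 70 bases before the start, and the GC box at 1, but neither TGTTCT nor CCAAT. CD46 held TGTTCT at 1 place, 121 bases before the start, TGACG at 1, the GC box at 3 and CCAAT at 1. In the CD59 window shown the GC box was found at 2 places and CCAAT at 1. The C1R window shown held TGACG at 1 place. Motifs differed between starts, since windows 3 and 4 of CD59 held no GC box and window 2 of C1R held none of the motifs. Of all 35116 windows, 14.8% held TGTTCT, 24.6% TGACG, 45.0% the GC box and 34.6% CCAAT. A match describes letters only and is no site of binding. GC content was 65.0% in the CD55 and 67.0% in the CD46 window, where the median of all windows was 58.7%.

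CD55 (ENSG00000196352, chr1:207321376-207386804 in GENCODE 29 on GRCh38) and CD46 (ENSG00000117335, chr1:207752057-207795513) belong to a cluster of complement regulator genes and are 365 kb apart. Protein-coding genes within 500 kb of the pair numbered 18, of which 11 had at most 3 counts in every library, among them CR1, C4BPA and C4BPB. Of the 4 tested besides CD55 and CD46, PFKFB2 rose from 52.6 ± 2.08 to 119 ± 0.807 CPM (SD, n = 3 each), which is 1.17 ± 0.0684 on the log2 scale (SE) with edgeR's adjusted p = 7.35e-08. YOD1, which lies inside PFKFB2 on the other strand so that their reads may be confused if strand was not used in counting, had 0.29 ± 0.11. CR2, a receptor for C3 fragments on B cells and next to CD55, had -0.051 ± 0.183 and C1orf116 -0.97 ± 0.45. These 4 genes were picked by position, after values were known.

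**Figure D3:**
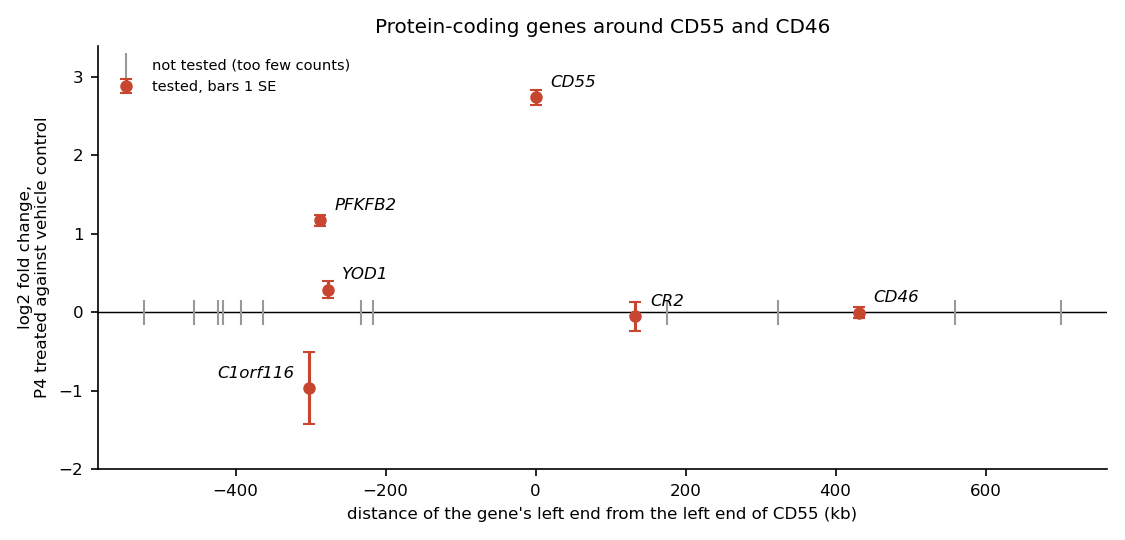
log2 fold change of P4 treated against vehicle control cultures (bars, 1 SE) for protein-coding genes around CD55 and CD46, by the distance in kb between the left end of each gene and that of CD55. Grey ticks are genes with too few counts to test; CD55, at 2.74, stands above PFKFB2, at 1.17, with CR2 and CD46 near 0.

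C1R and C1S (ENSG00000159403, chr12:7080199-7092607, and ENSG00000182326, chr12:6988259-7071032), which encode the proteases of the C1 complex, were expressed at the edge of detection. C1R was called lower after P4 than in vehicle control and C1S was not. C1R was at 1.20, 2.06 and 1.65 CPM in control, 1.35 and 2.58 CPM in Nap vehicle, 2.42, 2.29 and 1.93 CPM in vehicle control and 1.14, 0.507 and 0.455 CPM in P4 treated cultures. The P4 treated values rest on 12, 6 and 6 counts. All of them lay below every other culture. The log2 fold change of C1R was -1.67 ± 0.352 (SE) against vehicle control, -1.54 ± 0.445 against Nap vehicle and -1.25 ± 0.374 against control. Without P4 treated replicate 1 these became -2.15, -2.03 and -1.73. Without Nap vehicle replicate 2 the value for C1R against Nap vehicle was -0.96 and without P4 treated replicate 3 it was -1.27, and neither was called. Against control, C1R was at -1.03 without control replicate 2 and -0.98 without P4 treated replicate 3, likewise not called.

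C1S was at 1.26, 0.950 and 0.600 CPM in control, 1.98 and 1.63 CPM in Nap vehicle, 1.12, 1.47 and 1.53 CPM in vehicle control and 0.947, 0.507 and 1.06 CPM in P4 treated cultures. P4 treated cultures lay below the vehicle control and Nap vehicle ones but overlapped with the untreated controls. For C1S the log2 fold change was -0.76 ± 0.34 (SE) against vehicle control, -1.08 ± 0.363 against Nap vehicle and -0.17 ± 0.37 against control. It was called against Nap vehicle alone, and there not without either Nap vehicle culture, at -0.94 and -1.21, nor without P4 treated replicate 2, at -0.82, nor with DESeq2, at -1.09. C1S spans EMG1 and LPCAT3 in the annotation, at 45.8 ± 1.87 and 31.6 ± 0.879 CPM in vehicle control cultures (SD, n = 3 each), and C1R overlaps C1RL, at 0.691 ± 0.268 CPM there and 0.142 ± 0.0531 CPM after P4. The split of reads between such genes is uncertain, since the strand setting of the counting is not stated.

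Of the 6 stromal markers, COL1A1 and COL1A2 were called lower in P4 treated than in vehicle control cultures. COL3A1 overlapped between these groups with a log2 fold change of -0.14 ± 0.11 (SE), and LUM, with too few counts to test there, overlapped too. Like C1R, COL1A2 was also called lower against Nap vehicle and control, and so was COL3A1. COL1A1 was called against neither, at -0.097 and -0.19, and was called higher in vehicle control than in Nap vehicle, at 0.36. Summed over the 6 markers of that list, levels were 423 to 631 CPM in control, 420.0 to 618 CPM in Nap vehicle, 337 to 358 CPM in vehicle control and 125 to 176 CPM in P4 treated cultures. COL1A2 made up most of this, at 252 to 271 CPM in the vehicle control and 54.2 to 111 CPM after P4. DCN and PDGFRB were at 0 in the 3 P4 treated cultures and at most 0.0805 CPM in vehicle control cultures. Epithelial markers moved too. KRT8 (-0.70 ± 0.080), PAX8 (-0.68 ± 0.067), KRT19 (-0.35 ± 0.072) and KRT18 (-0.34 ± 0.086) were called lower than in vehicle control, and CDH1 (0.24 ± 0.075) higher. EPCAM and MUC1 were not called. PAX8 was not called against Nap vehicle or control. Among markers with too few counts to test, PTPRC and CD68 (leukocytes) and VWF (endothelium) also lay lower in each P4 treated culture, at 0.0759 to 0.253, 0.0759 to 0.169 and 0.169 to 0.304 CPM, than in vehicle control, at 0.442 to 0.966, 0.403 to 1.03 and 0.442 to 1.05 CPM. CD14, LYZ, CD3E and PECAM1 of the same lists overlapped between these groups, and CDH5 was at 0 in both. CD68 was not lower after P4 than in control, at 0 to 0.109 CPM, or Nap vehicle, at 0 to 0.0679 CPM. All cultures were of 1 cell line, and any link between these markers and the lower C1R level was not tested.

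SERPING1 (ENSG00000149131, chr11:57597387-57614853) varied as much within the groups as between them. Its levels were 0.984, 1.32 and 0.825 CPM in control, 0.633 and 0.950 CPM in Nap vehicle, 0.745, 1.25 and 1.77 CPM in vehicle control and 0.852, 1.60 and 1.21 CPM in P4 treated cultures. The ranges of all 4 groups overlapped. The log2 fold change against vehicle control was -0.14 ± 0.34 (SE).

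C3 (ENSG00000125730, chr19:6677704-6730562), the central component, also overlapped between groups, at 1.69, 2.11 and 1.27 CPM in control, 1.35 and 2.10 CPM in Nap vehicle, 0.186, 1.03 and 1.85 CPM in vehicle control and 2.08, 0.929 and 1.67 CPM in P4 treated cultures. The lowest value is 1 read in the smallest library. Against vehicle control C3 had a log2 fold change of 0.37 ± 0.45 (SE), with a 95% interval from -0.59 to 1.34.

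C4A (ENSG00000244731, chr6:31982024-32002681), the substrate of C1s, had 3, 8 and 3 counts in control, 3 and 7 in Nap vehicle, 1, 8 and 3 in vehicle control and 7, 6 and 6 in P4 treated cultures, too few to test. Its near-identical copy C4B had 0 to 3 counts. Only uniquely aligned reads were counted, so that reads shared by both are missing, and their sum was 0.366 ± 0.205 CPM in the vehicle control and 0.570 ± 0.105 CPM after P4 (SD, n = 3 each). CFI (ENSG00000205403, chr4:109740694-109802179) was not detectable at this depth, with 0 counts in each P4 treated and vehicle control culture.

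Of the 9 genes, 7 had enough counts to be tested. CD55 was called higher and CD59 and C1R lower in P4 treated than in vehicle control cultures, that is 3 of 7 where 53.0% of all 16540 genes tested were called, 26.6% higher and 26.5% lower. Groups did not overlap for CD55, C1R and C1S, 3 of the 7, compared with 59.9% of the genes tested. The median log2 fold change of the 7 was -0.14, against -0.013 for all genes tested. Against Nap vehicle 4 of 7 were called (C1S in addition), with 49.7% of 16987 genes called, and against control 3 of 7, with 54.8% of 16620. As the choice of genes used the P4 response, nothing is read from these counts.

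**Figure D4:**
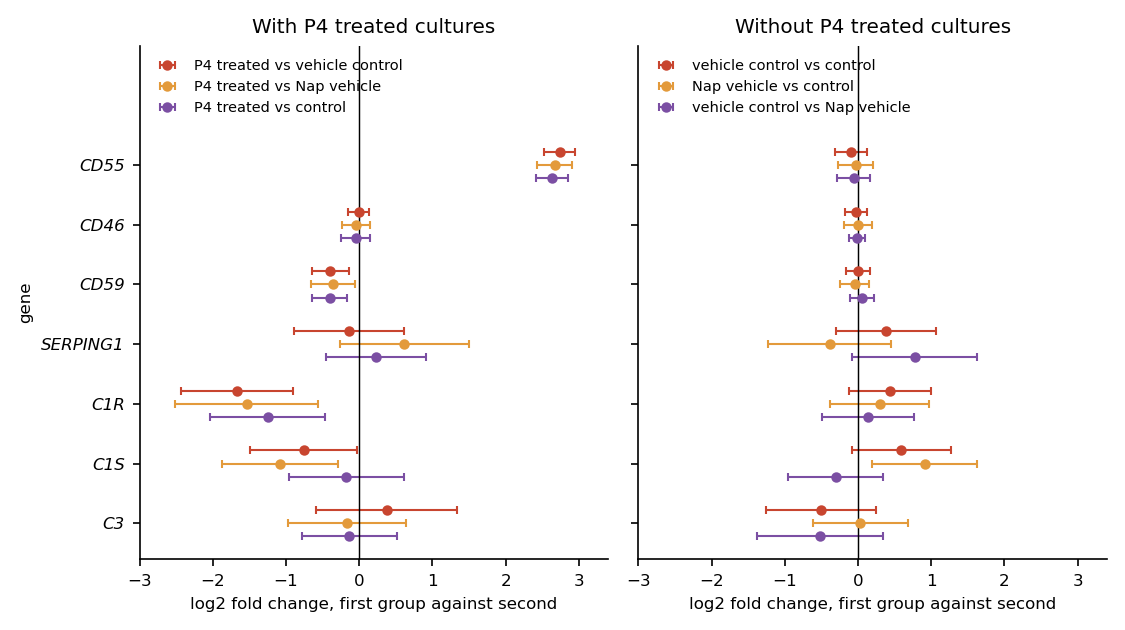
log2 fold change of the 7 genes tested, with 95% intervals, in the 3 comparisons with P4 treated cultures (left) and the 3 without (right). CD55 lies between 2.63 and 2.74 on the left and between -0.10 and -0.03 on the right, where only C1S in Nap vehicle against control has an interval that leaves out 0.

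The cultures without P4 showed whether the vehicle parts alone moved these genes, a measure that the choice did not use. None of the 7 was called by edgeR's quasi-likelihood test between vehicle control and control, where 22.6% of 16673 genes were called, or between vehicle control and Nap vehicle, where 23.8% of 16935 were. At an unadjusted p under 0.05 there was likewise none of the 7, where 6009 and 6162 of all genes tested passed in these comparisons. DESeq2 called none of the 7. Between Nap vehicle and control 0% of 17166 genes were called, with 217 at an unadjusted p under 0.05 and 1 called by DESeq2. These 3 comparisons share cultures in pairs.

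For CD55 the log2 fold change of vehicle control against control was -0.096 ± 0.106 (SE), with a 95% interval from -0.32 to 0.12 and edgeR's adjusted p = 0.543. Against Nap vehicle it was -0.058 ± 0.109, with an interval from -0.28 to 0.17 and adjusted p = 0.743. CD46 had -0.031 ± 0.072 (interval -0.18 to 0.12, adjusted p = 0.795) and CD59 -0.0023 ± 0.0809 (interval -0.17 to 0.17, adjusted p = 0.988) in vehicle control against control. C1S was the gene with the largest difference between Nap vehicle and control among the 7, at 0.91 ± 0.34 (interval 0.19 to 1.63). Both Nap vehicle cultures lay above the 3 controls, with an unadjusted p of 0.0152 and an adjusted p of 1.00 by edgeR. C1R, at 0.43 ± 0.27 in vehicle control against control (interval -0.12 to 0.99, adjusted p = 0.255), and C3, at -0.51 ± 0.36 (interval -1.26 to 0.25, adjusted p = 0.331), had intervals too wide to say how far the vehicle moved them. The same holds for C1S in that comparison, at 0.59 ± 0.33 (interval -0.084 to 1.26, edgeR's adjusted p = 0.197). It also holds for SERPING1 in vehicle control against Nap vehicle, at 0.77 ± 0.41 (interval -0.082 to 1.63, edgeR's adjusted p = 0.181).

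Other genes of the pathway were taken from a list of 48, covering recognition proteins, proteases, terminal components, receptors and regulators. Of these, 14 had no read in the 11 libraries, 16 had at most 3 counts in each and 18 had more. All C1q chains, MBL2, C8A and C8B were among those at 0. In P4 treated against vehicle control cultures 8 were tested, of which 4 were called higher and 4 were not called, where 53.0% of all genes were called. The median log2 fold change of the 8 was 0.51, against -0.013 for all genes tested. Both values depended on the reference group. Against Nap vehicle 1 of the 8 (C5AR1) was called higher and 1 (CFD) lower, where 49.7% of all genes were called, with a median of 0.031. Against control 2 (C5AR1 and COLEC12) were called higher and 1 (CFD) lower, where 54.8% were called, with a median of 0.17.

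CFD, which encodes factor D, the protease that activates the alternative pathway, was at 1.33 ± 0.160 CPM after P4, 1.90 ± 0.527 CPM in vehicle control and 2.23 ± 0.445 CPM in control (SD, n = 3 each), and at 2.36 ± 0.209 CPM in Nap vehicle (n = 2). P4 treated cultures lay below all others. For CFD the log2 fold change was -0.83 ± 0.29 (SE) against Nap vehicle (edgeR's adjusted p = 0.0297), -0.72 ± 0.28 against control (adjusted p = 0.0345) and -0.57 ± 0.29 against vehicle control (adjusted p = 0.119). The CFD call against Nap vehicle was lost without either Nap vehicle culture, without P4 treated replicate 2 or 3, without a filter and with DESeq2, at -0.92 to -0.73 with adjusted p from 0.0571 to 0.169. That against control was lost without control replicate 2 or 3, without P4 treated replicate 2 or 3, without a filter and with DESeq2, at -0.74 to -0.60 with adjusted p from 0.0545 to 0.131. COLEC12, a scavenger receptor of the collectin family, had 0.91 ± 0.31 against control (adjusted p = 0.02002), a call lost without any one of the controls (adjusted p = 0.0551 to 0.0658) or without P4 treated replicate 2 (0.42, adjusted p = 0.307).

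C5, which starts the terminal pathway, rose from 11.3 ± 2.35 to 16.6 ± 0.877 CPM (SD, n = 3 each), or 0.50 ± 0.13 (SE) on the log2 scale (edgeR's adjusted p = 0.00742). Control cultures were at 14.7 ± 2.71 CPM, and against them C5 had 0.20 ± 0.14 (adjusted p = 0.251). SUSD4, a membrane regulator with sushi domains, rose from 7.52 ± 0.450 to 11.4 ± 0.746 CPM, or 0.58 ± 0.13 (adjusted p = 0.00302). Here too the untreated level was near that after P4, at 11.2 ± 1.91 CPM, and the difference from control was 0.026 ± 0.150 (adjusted p = 0.898). SUSD4 was in fact lower in vehicle control than in control, by -0.55 ± 0.15 (adjusted p = 0.0125), and than in Nap vehicle, by -0.59 ± 0.14 (adjusted p = 0.00464). The first of these calls was lost without vehicle control replicate 3 (-0.51, adjusted p = 0.0698).

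CLU, which encodes clusterin, an inhibitor of the terminal complex, rose from 7.48 ± 1.16 to 10.2 ± 0.312 CPM, or 0.42 ± 0.14 (adjusted p = 0.0254). The CLU call was lost without vehicle control replicate 1 (0.37, adjusted p = 0.0649), vehicle control replicate 2 (0.36, adjusted p = 0.117) or P4 treated replicate 3 (0.44, adjusted p = 0.0607), or with DESeq2 (0.43, adjusted p = 0.0671) or upper-quartile scaling (0.33, adjusted p = 0.0676), and it had 0.15 ± 0.16 against control (adjusted p = 0.433). C5AR1, the receptor for C5a, was at 3.01 ± 1.53 CPM after P4 and 1.63 ± 0.392 CPM in vehicle control, overlapping, with a log2 fold change of 0.96 ± 0.38 that just passed (adjusted p = 0.0495). This C5AR1 call was lost without any one of the vehicle control cultures (adjusted p = 0.0840, 0.219 and 0.0841, at 1.03, 0.71 and 1.11) and without P4 treated replicate 2 (0.90, adjusted p = 0.0798) or 3 (0.61, adjusted p = 0.255). DESeq2 (0.92, adjusted p = 0.0688), upper-quartile scaling (0.87, adjusted p = 0.0682) and a minimum of 10 counts in every sample (0.95, adjusted p = 0.0507) ended it as well. Against control C5AR1 had 1.58 ± 0.397 (adjusted p = 0.00361). COLEC11, a lectin pathway recognition protein, was lower in vehicle control than in Nap vehicle, at 0.928 ± 0.0410 and 1.90 ± 0.000622 CPM (SD, n = 3 and 2), by -1.01 ± 0.338 (adjusted p = 0.0336). Without vehicle control replicate 2 or 3 or either Nap vehicle culture the COLEC11 value stayed between -1.04 and -0.96, with adjusted p of 0.121, 0.0909, 0.0948 and 0.103, and with all 4 groups in the fit it was -1.01 (adjusted p = 0.0702). DESeq2 gave COLEC11 -1.02 and no adjusted p.

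**Figure D5:**
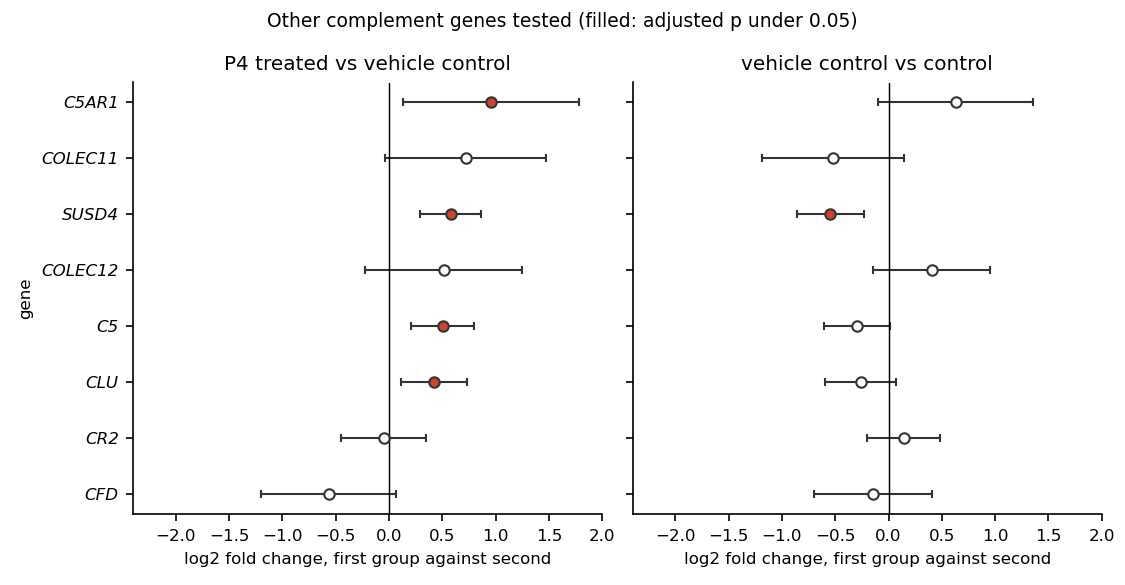
log2 fold change with 95% interval of the 8 other complement genes tested, in P4 treated against vehicle control cultures (left) and vehicle control against control cultures (right). Filled points are called by edgeR at an adjusted p under 0.05; SUSD4, at 0.58 on the left and -0.55 on the right, is the gene called in both.

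Finally, genes with a pattern most like that of CD55 were sought among 9435 protein-coding genes with a mean of at least 10 CPM, by Pearson's r of log2(CPM + 1) over the 11 cultures. The highest were HES6, a transcriptional regulator, with r = 0.998, MIA2 with r = 0.998, ARG2, a mitochondrial arginase, with r = 0.998, PDE7A, a cyclic AMP phosphodiesterase, with r = 0.997, and FAM129A with r = 0.996. HES6 was at 25.05 to 34.4 CPM in the 8 cultures without P4 and at 268 to 395 CPM in the 3 with it, and ARG2 at 1.93 to 2.69 and 32.6 to 40.6 CPM. The cultures fall into these separate clusters, so that r mostly describes the step between them, and 46 genes had r above 0.99.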

How the data were processed

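RNA-seq was analysed in 11 Ishikawa cultures with a condition, and 6 cultures with contradictory labels were left out of comparisons. The authors trimmed reads with Cutadapt, filtered them by quality, kept unique Subread alignments and deposited featureCounts counts per gene of GENCODE release 31, without normalization. Versions and strand setting are not given in the sources used here. Of 60662 genes, 58587 were named by ID from GENCODE 29 on GRCh38 and 2054 from a table of names. RPKM used exon lengths of GENCODE 29, since the count table has no length column, as had been planned.

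Each pair of groups was fitted alone with edgeR 4.0.16 (R 4.3.3): TMM, filterByExpr (minimum count 10), robust quasi-likelihood test and Benjamini-Hochberg adjustment over all genes tested, with calls at an adjusted p under 0.05. SE is the log2 fold change divided by the square root of F. CPM values share 1 TMM scaling over 17 libraries. Replicates are biological in the labels, but p-values measure only the spread between these cultures. Pairwise chi-square per degree of freedom was 1.54 to 2.73 within vehicle control, 3.67 within Nap vehicle, 4.69 to 11.9 within P4 treated and 5.02 to 20.6 within control cultures. This is beyond counting error but cannot show that the cultures are independent. Each culture was counted as 1 sample. Alternatives were DESeq2 1.42.0, RLE and upper-quartile scaling, other filters, all groups in 1 fit, the replicate number as a block and each replicate left out. The code was tested on simulated data. Tables and figures were made with Python 3.11.15, pandas 2.3.3, scipy 1.17.1 and matplotlib 3.10.9. Promoter windows are from RefSeq (GRCh38.p14), where 5 of the 9 genes have one.

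The members and lists were chosen with earlier results of these data known. The text names the 9 genes, C4B, other complement genes called in P4 treated against vehicle control or in a comparison without P4, the 5 genes most like CD55, and cell type markers. Of the other complement genes, 1 is not reported here and stands in no count. Other genes were chosen after their values were seen.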

Additional observations from a re-analysis of the deposited data

Results flagged for a closer look

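CD55 was at 133, 150 and 147 CPM in the 3 cultures titled PSAT1 (replicates 1 to 3), whose descriptions name PSAT1 with P4. These values lie above the highest of the 8 control, Nap vehicle and vehicle control cultures, at 22.8 CPM, and drew attention because no comparison uses these cultures. No condition was assigned to them.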

How the results depend on the processing

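Over all genes, the calls in P4 treated against Nap vehicle cultures numbered 5502 to 9719 with single replicates left out (fewest without Nap vehicle replicate 2, 5606 without Nap vehicle replicate 1, against 8446). Those in vehicle control against control numbered 1908 to 3995 (without vehicle control replicate 3, and 2038 without replicate 2, against 3763). In vehicle control against Nap vehicle they numbered 2355 to 3803 with single replicates left out (without vehicle control replicate 2, and 2471 without replicate 3, against 4034), 2267 with DESeq2 and 1912 with all 4 groups in the fit. Nap vehicle against control gave 1 with DESeq2, 3 without a filter, 1 with all 4 groups in the fit and 0 to 5 with single replicates left out. In P4 treated against Nap vehicle, 4 of the 7 complement genes tested were called, where 49.7% of all genes were. DESeq2 called 2, and fits with single replicates left out called 1 to 4. With at least 10 counts in every sample 2 were called, but C1R and C1S were not tested there. Each had 6 counts in P4 treated replicate 2. The log2 fold change of CD55 was 2.57 to 2.82 in the 3 P4 comparisons over every alternative run. As its rise led to the choice of genes, this range is a description only. Upper-quartile scaling moved the median of all genes to -0.10 in P4 treated against vehicle control, and CD46 with it to -0.0946.

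In comparisons without P4, log2 fold changes near 0 changed sign, and the cause was not tested. With upper-quartile scaling CD59 was at 0.0109 in vehicle control against control and CD46 at 0.0091 in Nap vehicle against control. Leaving out single replicates, vehicle control against control ranged from -0.176 to 0.0022 for CD55, from -0.0716 to 0.0354 for CD46 and from -0.0496 to 0.0626 for CD59. Nap vehicle against control ranged from -0.0899 to 0.0138 for CD55, from -0.0435 to 0.0577 for CD46, from -0.1235 to 0.0218 for CD59, from -0.343 to 0.298 for C3 and from -0.2719 to 0.6619 for C1R. Vehicle control against Nap vehicle ranged from -0.1393 to 0.046 for CD55, from -0.011 to 0.119 for CD59 and from -0.2279 to 0.6886 for C1R. None of these was called.

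Whether the replicate numbers pair the cultures differed by comparison. Same-numbered cultures deviated together with correlations of -0.044 to 0.046 in P4 treated against vehicle control and -0.084 to -0.048 in P4 treated against control. Against Nap vehicle these were -0.090 to -0.045 for P4 treated and 0.041 to 0.073 for vehicle control cultures. Vehicle control against control had -0.0038 to 0.075. Nap vehicle against control stood apart, with 0.256 and 0.320 in its 2 pairs sharing a replicate number. With that number as a block, calls were lost in P4 treated against Nap vehicle for CD59 (-0.34), CFD (-0.76, edgeR's adjusted p = 0.145) and C5AR1 (0.84, adjusted p = 0.107), and in vehicle control against Nap vehicle for COLEC11 (-1.04, adjusted p = 0.0710), while COLEC12 was gained in the former (1.17, adjusted p = 0.0148) and C5 in vehicle control against control (-0.35, adjusted p = 0.0388). With the replicate number as a block, Nap vehicle against control called 42 genes, with CD46 at 0.0584 and C3 at -0.1248. Vehicle control against Nap vehicle then called 1 of the 9 genes, C3 at -1.28 (edgeR's adjusted p = 0.0294, up to 0.871 over its alternatives), with CD55 at 0.0362 and CD59 at -0.0042.

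C4A with C4B added had too few counts to be fitted. Depth limits what can be said of SERPING1, C1R, C1S and C3, at 1 to 40 counts per library, and of C4A and CFI.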

Other observations

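In the 3 cultures titled PSAT1_P4, whose descriptions name PSAT1 alone, CD55 was at 22.9, 18.7 and 21.1 CPM. The other membrane regulators were closer between both sets of cultures without a settled condition. CD46 lay at 200.4 to 232 CPM (median 209) in the cultures titled PSAT1 and at 211 to 212 CPM (median 211) in those titled PSAT1_P4, and CD59 at 40.5 to 48.8 CPM (median 44.2) and at 54.3 to 61.1 CPM (median 55.1).

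C1R was at 0.589, 0.815 and 0.414 CPM in the cultures titled PSAT1 and at 1.60, 1.81 and 2.09 CPM in those titled PSAT1_P4. C1S was at 0.815 to 1.14 CPM (median 0.981) and at 0.658 to 2.35 CPM (median 1.28), SERPING1 at 0.996 to 1.28 and 0.718 to 1.34 CPM, and C3 at 0.981 to 1.55 and 1.67 to 1.81 CPM. C4A had 2 to 5 and 3 to 5 counts, and CFI had 0 counts in each of these 6 libraries.

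C5AR2, a second receptor for C5a that had too few counts to test against vehicle control, was at 0.322 to 0.442 CPM in the vehicle control and 0 to 0.0845 CPM after P4, both near the limit of detection. It was chosen after its values were seen.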
